A study of Mus musculus with 6 samples.

Results

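R-spondins are secreted proteins that strengthen WNT signalling. They bind the receptors LGR4, LGR5 and LGR6 and the transmembrane ubiquitin ligases ZNRF3 and RNF43, which otherwise remove Frizzled WNT receptors from the cell surface, so that capture of a ligase by an R-spondin leaves more receptor in place. In the intestine this input sustains the crypt stem cells, which are themselves marked by Lgr5, and its ligands come from mesenchymal and lymphatic endothelial cells around the crypts. The 9 genes described here are the 4 ligands Rspo1, Rspo2, Rspo3 and Rspo4, the 3 receptors Lgr4, Lgr5 and Lgr6, and the 2 ligases Znrf3 and Rnf43, chosen by name from the 33697 genes of the count tables. All 9 were listed in every table.

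The cells came from 6 single-cell RNA libraries of intestinal lamina propria from Flare-TSLP mice, a C57BL/6 line in which tdTomato reports the Tslp locus, and live tdTomato+ cells had been sorted. There were 2 libraries of proximal jejunum, 2 of distal ileum, 1 of cecum and 1 of large intestine. They are called proximal 1, proximal 2, distal 1, distal 2, cecum and large intestine below, the first 4 are the small intestinal libraries and the last 2 the large bowel. All mice carried the reporter, the labels name no treatment, age or sex, and each library pooled cells under 3 antibody hashtags. The study describes several biological samples per tissue and hashtags for multiplexing, so a hashtag may mark a biological sample, but the sources used here do not match one to the other. The labels do not say that replicate libraries came from separate animals, so p-values measure the spread between these libraries, which may be technical.

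After the filters the libraries held 10550 to 18105 cells each, with a median of 6583 to 9142.5 unique transcript tags (UMIs) per cell. Barcodes with few UMIs, which hold free RNA, carried 2.90% to 3.82% of the UMIs of a library. The sort could not be checked well in the RNA, since 301 to 1081 tdTomato UMIs were counted per library, over all barcodes. One set of 3 hashtags, set A, was used in proximal 1, distal 1, cecum and large intestine, and another, set B, in proximal 2 and distal 2. The replicate number and the hashtag set cannot be told apart in the small intestine, and both large bowel libraries carried set A.

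Cells were assigned to classes by the number of marker genes with a UMI, and none of the 9 genes was a marker. The share of fibroblast-marker UMIs needed for the fibroblast classes was, however, lowered after Lgr5-rich cells were seen below it. The lymphatic-like class, which needed 5 of 6 lymphatic endothelial markers, held 2299, 5142, 735, 5547, 223 and 245 cells in proximal 1, proximal 2, distal 1, distal 2, cecum and large intestine. Its cells had a median of 6 of the 6 markers in every library, and Prox1, the transcription factor that defines lymphatic endothelium, stood at 971 to 1193 UMIs per 1000000 UMIs of the class (CPM) in all 6 libraries. The trophocyte-like class, CD34+ fibroblasts below the crypts, needed 4 of 6 markers and held 6043, 4479, 10408, 4330, 2117 and 858 cells. Its marker Dkk2 stood at 586 to 1037 CPM in the small intestine, 6.44 CPM in the cecum and 11.1 CPM in the large intestine, so the class may not be the same mixture of cells in the large bowel, or may express the marker less, which was not tested. The subepithelial-like class (Wnt4, Cxcl14, Il34) held 1466, 1736, 949, 1882, 2800 and 1683 cells.

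The telocyte-like class (Bmp7, Foxl1, Wnt5a) needed 3 of 6 markers and held 99, 67, 47 and 49 cells in the small intestine, 502 cells in the cecum and 2937 cells in the large intestine. Adamts18, a marker of small intestinal villus tip telocytes, stood at 238 to 429 CPM in the small intestinal class, 34.2 CPM in the cecum and 25.05 CPM in the large intestine. Telocyte-like cells of every library also carried a median of 3 or 4 of the 7 subepithelial markers, against 3 or 4 of their own 6. The universal fibroblast-like class (Pi16 or Dpp4 with 4 of 6 markers) held 298 to 1753 cells per library. In the small intestine its cells also carried a median of 4 or 5 of the 6 trophocyte markers, against 4 of their own 6. In the cecum and the large intestine they carried a median of 4, against 5 of their own. The class thus overlaps trophocytes by markers in every library. The classes are called by their short names below. They were rebuilt from markers and are not the annotation of the study, so differences from it may come from the rebuilt names.

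Rspo3 (chr10:29327285-29411876, minus strand, GRCm39, overlapping Gm20276 on the same strand) was highest in the lymphatic class and next in trophocytes by the mean over the small intestinal libraries, and was counted with 85681 UMIs over all 6 libraries. In lymphatic cells the level was 277, 339, 284, 349, 163 and 166 CPM in proximal 1, proximal 2, distal 1, distal 2, cecum and large intestine. All 4 small intestinal lymphatic values lay above both large bowel values, and the mean of the 4 was 312 ± 37.2 CPM (SD, n = 4). In trophocytes Rspo3 stood at 178, 197, 90.0, 108, 51.0 and 94.7 CPM, with a small intestinal mean of 143 ± 52.0 CPM (SD, n = 4). The lowest small intestinal lymphatic value thus lay above the highest trophocyte value. The place of trophocytes was not the same in every library, since subepithelial cells had more in distal 1 (102 CPM) and myofibroblasts or smooth muscle more in the cecum (64.9 CPM from 82 UMIs). Universal fibroblasts followed at 126 ± 43.3 CPM and subepithelial cells at 83.7 ± 21.4 CPM (SD, n = 4 each), and the ranges of trophocytes, universal fibroblasts and subepithelial cells overlapped. Telocytes had 21.4, 26.9, 15.8 and 37.9 CPM in the small intestine, below every trophocyte value.

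A UMI of Rspo3 was found in 69.4%, 79.2%, 70.9% and 76.1% of lymphatic cells of proximal 1, proximal 2, distal 1 and distal 2. With each cell thinned to 2500 UMIs the shares were 44.9%, 51.5%, 46.9% and 53.0%. In B or plasma cells, which should lack the gene, an Rspo3 UMI was found in 2.52% to 5.56% of small intestinal cells at median depths of 10244.5 to 14791 UMIs, against 5420 to 6594.5 UMIs per lymphatic cell. Lymphatic cells carried 22.2% (95% exact binomial interval 21.6% to 22.8%), 46.1%, 11.1% and 56.6% of all Rspo3 UMIs in these libraries, while they were 15.2%, 32.2%, 4.06% and 33.2% of the cells. Their share of Rspo3 therefore exceeded their share of cells in each small intestinal library, and moved with the number of lymphatic cells recovered. Trophocytes carried 52.7%, 36.1%, 61.7% and 22.6%. These intervals, and the bars in the plots, cover counting error only.

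**Figure D1:**
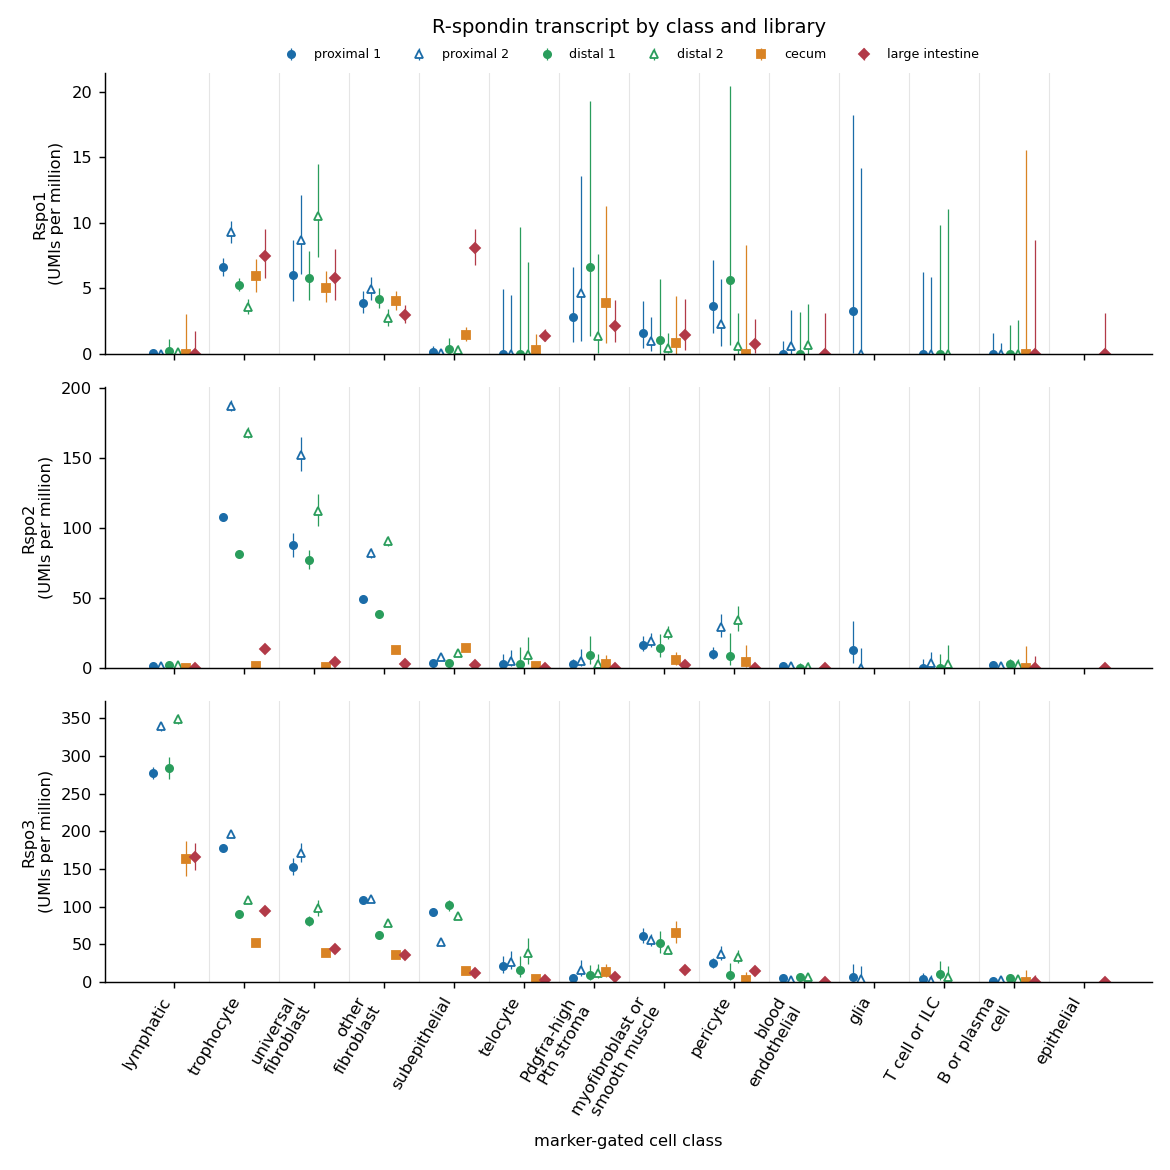
Levels of Rspo1, Rspo2 and Rspo3 by class in CPM on the vertical axes. Points are libraries and bars are exact Poisson intervals of the count, and classes with under 30 cells in a library are not drawn. Rspo3 stood highest in the lymphatic class (277 to 349 CPM in the small intestine) and Rspo2 in trophocytes of the small intestine (81.4 to 188 CPM), while cecal Rspo2 was higher in subepithelial cells (14.4 CPM) than in trophocytes (1.58 CPM).

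Rspo2 (chr15:42877439-43034706, minus strand), counted with 40754 UMIs, had a different distribution over the same classes. Trophocytes had 108, 188, 81.4 and 168 CPM in proximal 1, proximal 2, distal 1 and distal 2 (mean 136 ± 49.95 CPM, SD, n = 4), 1.58 CPM in the cecum and 13.8 CPM in the large intestine. Universal fibroblasts had 87.7, 152, 77.3 and 112 CPM in the small intestine, 0.523 CPM in the cecum and 4.08 CPM in the large intestine. The 2 classes overlapped within the small intestine, and both were far lower in the large bowel. Lymphatic cells had 1.38, 1.52, 1.87 and 2.33 CPM in the small intestine and no Rspo2 UMI in either large bowel library. The level of 3 UMIs, taken here as the limit for a count of 0, was 2.47 CPM in the cecum and 1.44 CPM in the large intestine. Subepithelial cells had 3.19, 7.75, 3.50 and 10.5 CPM and telocytes 2.68, 4.88, 2.63 and 9.47 CPM.

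In both regions the replicate 2 library had more Rspo2 in trophocytes than the replicate 1 library. Over the hashtags, trophocyte Rspo2 ranged from 94.7 to 97.0 CPM in proximal 1 and from 133 to 216 CPM in proximal 2, and from 68.3 to 92.4 CPM in distal 1 and 123 to 187 CPM in distal 2. The hashtag ranges of the 2 replicates did not overlap within either region. These ranges leave out trophocytes with no hashtag called, 3068 of 6043, 2004 of 4479, 2050 of 10408 and 1347 of 4330 cells in proximal 1, proximal 2, distal 1 and distal 2, which had 120 (95% exact Poisson interval 116 to 125), 217, 103 and 233 CPM of Rspo2. Each of these values lay above all 3 hashtags of its library, in proximal 2 by less than counting error, and the cause was not tested. A UMI of Rspo2 was found in 43.8%, 59.2%, 35.3% and 52.0% of small intestinal trophocytes, 0.898% of those of the cecum and 7.23% of those of the large intestine, against 0.913% to 1.32% of small intestinal lymphatic cells and 2.14% to 2.78% of the deeper B or plasma cells. Trophocytes carried 77.9%, 75.4%, 79.0% and 68.8% of all Rspo2 UMIs in the small intestine. In the cecum the 705 Rspo2 UMIs lay elsewhere, with 50.4% (95% exact binomial interval 46.6% to 54.1%) in fibroblasts outside the named classes, 42.8% (39.1% to 46.6%) in subepithelial cells and 3.40% in trophocytes.

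Ackr4, a scavenging chemokine receptor used as a trophocyte marker, split the class. Because Ackr4 counted in the gate, trophocytes without it needed 4 of the other markers. Dkk2, another of these markers, was nearly absent from the large bowel class. Cells without Ackr4 may thus carry other markers in the large bowel than in the small intestine. The part of this in the values with and without Ackr4 was not tested. Trophocytes with an Ackr4 UMI had 114, 205, 91.2 and 195 CPM of Rspo2 in proximal 1, proximal 2, distal 1 and distal 2, and those without had 84.3, 153, 55.3 and 133 CPM. Rspo2 was higher with Ackr4 in all 4 of these libraries, but not in the large bowel. There the values with and without were 1.20 and 6.81 CPM in cecal cells and 13.7 and 14.1 CPM in those of the large intestine. These large bowel values rest on few cells, since 19 of 2117 cecal trophocytes and 62 of 858 of the large intestine had an Rspo2 UMI. Whether the direction differs between the regions was not tested. For Rspo3 the values with and without Ackr4 were 177 and 181 CPM in proximal 1, 200.5 and 189 CPM in proximal 2, 94.9 and 76.9 CPM in distal 1, and 121 and 92.2 CPM in distal 2, higher with Ackr4 in 3 of 4 libraries, and 49.9 and 66.2 CPM in cecal cells and 87.0 and 134 CPM in those of the large intestine, lower with Ackr4 in both. Both ligands were also found in the same cells: of proximal 1 trophocytes, 70.1% of those with an Rspo2 UMI and 60.5% of those without had an Rspo3 UMI. After thinning these shares were 34.8% and 31.9% in proximal 1, 38.6% and 32.0% in proximal 2, 20.1% and 17.7% in distal 1, and 23.6% and 20.1% in distal 2.

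Rspo1 (chr4:124879876-124902892, plus strand) was sparse, with 2777 UMIs in all. In the small intestine it lay mainly in trophocytes, universal fibroblasts and fibroblasts outside the named classes. In proximal 1, 86 of 2953 fibroblasts outside the named classes had an Rspo1 UMI, against 24 of 428 universal fibroblasts. Trophocytes had 6.61, 9.29, 5.27, 3.60, 5.92 and 7.47 CPM in proximal 1, proximal 2, distal 1, distal 2, cecum and large intestine, and universal fibroblasts had 6.03, 8.70, 5.76, 10.5, 5.04 and 5.80 CPM. Large bowel values of both classes lay within or close to the small intestinal range. Subepithelial cells differed from this, with 2, 2, 3 and 5 UMIs in the small intestinal libraries, 30 UMIs in the cecum (1.43 CPM) and 137 UMIs in the large intestine (8.06 CPM, 95% exact Poisson interval 6.77 to 9.53). Subepithelial cells carried 36.7% of all Rspo1 UMIs of the large intestine (31.8% to 41.8%), where trophocytes carried 17.4% and telocytes 11.3%. Telocytes had no Rspo1 UMI in the small intestine, where the same limit of 3 UMIs was 1.21 CPM over the 4 libraries together. Rspo4 (chr2:151684708-151716605, plus strand) was counted with 3 UMIs over all 6 libraries and is not described further.

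**Figure D2:**
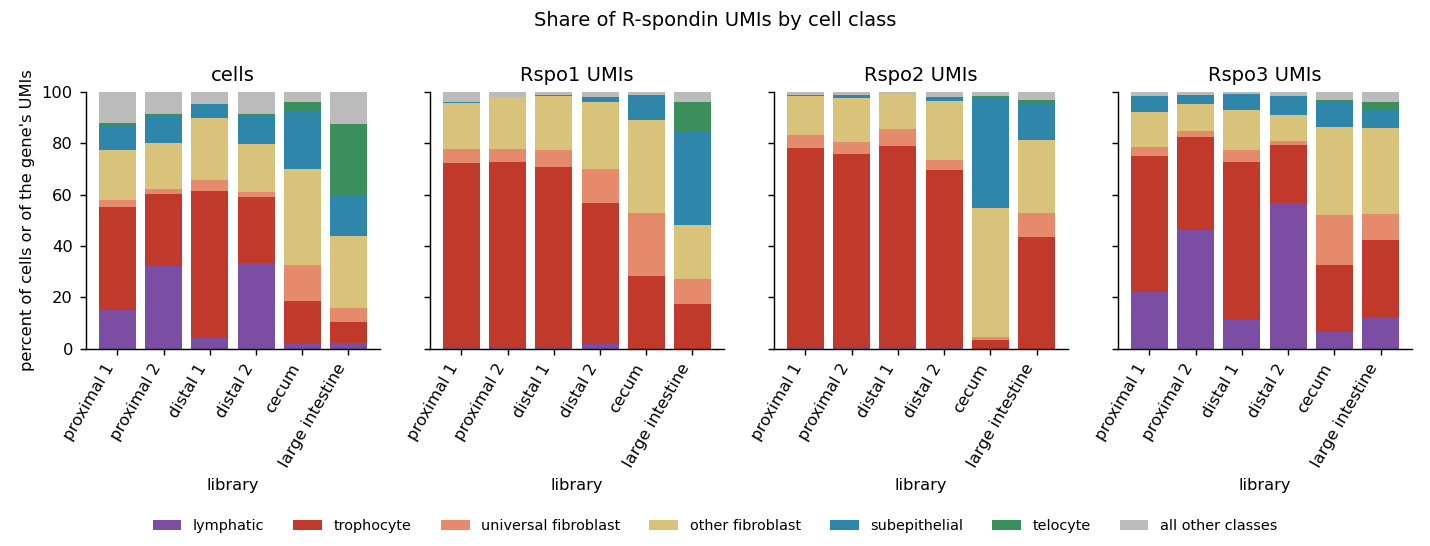
Stacked bars of the percent of cells and of the percent of Rspo1, Rspo2 and Rspo3 UMIs that lay in each class, for each library. Lymphatic cells took 11.1% to 56.6% of Rspo3 UMIs in the small intestine, and trophocytes took 68.8% to 79.0% of Rspo2 UMIs there.

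Lgr5 (chr10:115286216-115423685, minus strand), with 5255 UMIs, lay in a few telocytes at high counts, in many lymphatic cells at low counts and in a few fibroblasts outside the named classes. Telocytes had 891, 146, 599.6, 37.9, 21.0 and 12.8 CPM in proximal 1, proximal 2, distal 1, distal 2, cecum and large intestine, a small intestinal mean of 419 ± 398 CPM (SD, n = 4). The set A libraries of the small intestine were the highest, and distal 2 lay close to the large bowel values. An Lgr5 UMI was found in 34 of 99, 12 of 67, 21 of 47 and 5 of 49 small intestinal telocytes, 15 of 502 cecal telocytes and 71 of 2937 in the large intestine. After thinning to 2500 UMIs the shares were 31.3% (95% exact binomial interval 22.4% to 41.4%), 11.9% (5.30% to 22.2%), 42.6% (28.3% to 57.8%) and 8.16% (2.27% to 19.6%) in the small intestine, 2.59% for cecal telocytes and 1.29% for those of the large intestine. Within proximal 1 the telocytes of the 3 hashtags had 1012, 1482 and 262 CPM, over 34, 35 and 17 cells, and the 13 with no hashtag called had 130 CPM.

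Few telocytes held most of this Lgr5. The 10 highest telocytes of each library held 64.1%, 98.3%, 74.1%, 100%, 93.6% and 59.8% of its telocyte Lgr5 UMIs in the same library order, and the highest single cell had 72, 22, 25, 10, 13 and 50 UMIs. In proximal 1, telocytes with an Lgr5 UMI had 4.08 CPM of Rspo3 from 1 UMI (95% exact Poisson interval 0.103 to 22.7) and those without had 29.9 CPM (16.7 to 49.3). For Lgr4 the same 2 sets of cells had 65.3 CPM (37.3 to 106) and 49.8 CPM (32.3 to 73.6). The intervals of both genes overlapped there, in the other small intestinal libraries and in the cecum. In telocytes of the large intestine they did not, with 12.6 CPM of Rspo3 (6.05 to 23.2) in cells with an Lgr5 UMI and 2.501 CPM (1.96 to 3.14) in those without, and 66.9 CPM (50.1 to 87.5) and 44.0 CPM (41.7 to 46.5) of Lgr4. The direction of the Rspo3 difference was thus not the same in all libraries. Fibroblasts outside the named classes held 296, 147, 81 and 39 Lgr5 UMIs in proximal 1, proximal 2, distal 1 and distal 2, in 29 of 2953, 17 of 2837, 10 of 4395 and 15 of 3134 cells, which were 19.0%, 8.79%, 16.9% and 4.43% of all Lgr5 UMIs. This was more than telocytes held in proximal 2 and distal 2, and more than lymphatic cells held in proximal 1. Unassigned cells held Lgr5 as well, with 182 UMIs in 10 of 141 unassigned cells of proximal 1 and 168 UMIs in 5 of 155 of proximal 2.

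Lymphatic cells had 19.1, 30.8, 26.2 and 23.8 CPM of Lgr5 in the small intestine (24.99 ± 4.89 CPM, SD, n = 4), 4.11 CPM in the cecum from 5 UMIs and 3.84 CPM in the large intestine from 8 UMIs. Every small intestinal value lay above both large bowel values. An Lgr5 UMI was found in 9.26%, 12.7%, 10.7% and 9.28% of small intestinal lymphatic cells, and in 3.74%, 5.21%, 5.44% and 4.58% after thinning, while 0.154% to 0.469% of small intestinal trophocytes had one. Median depths were 5420 to 6594.5 UMIs in lymphatic cells. A positive lymphatic cell carried 1.37 to 1.81 Lgr5 UMIs on average, and the highest single cell 17, 64, 15 and 48. Lymphatic cells held 18.7%, 70.5%, 26.3% and 89.6% of all Lgr5 UMIs of proximal 1, proximal 2, distal 1 and distal 2, and telocytes held 42.7%, 7.18%, 47.5% and 2.27%. Of these 2 classes, the one with the larger share of Lgr5 was thus the telocytes in both set A libraries and the lymphatic cells in both set B libraries.

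Lgr5 and Rspo3 were also found in the same lymphatic cells. An Rspo3 UMI was found in 71.8% of proximal 1 lymphatic cells with an Lgr5 UMI and 69.2% of those without, and in 84.0% and 78.5%, 67.1% and 71.3%, and 81.6% and 75.5% in proximal 2, distal 1 and distal 2. After thinning the shares were 41.9% and 45.0%, 53.4% and 51.4%, 37.5% and 47.5%, and 56.3% and 52.9% in the same order. Neither direction held in all 4 libraries.

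**Figure D3:**
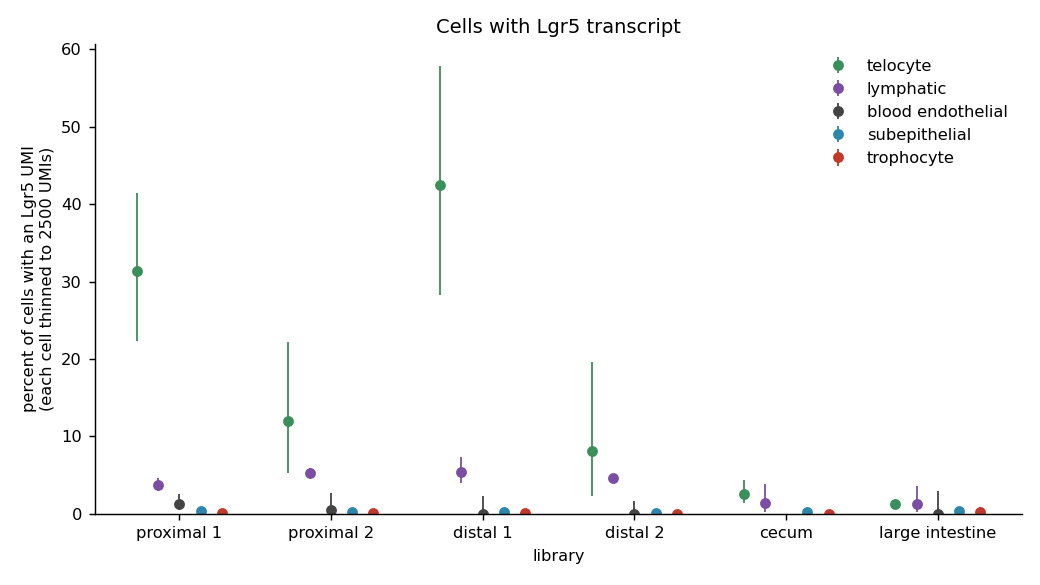
Percent of cells with an Lgr5 UMI (vertical axis) after thinning each cell to 2500 UMIs, by class and library, with exact binomial 95% intervals. Telocytes ranged from 8.16% to 42.6% in the small intestine with wide intervals, and lymphatic cells from 3.74% to 5.44%.

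Lgr4 (chr2:109747839-109844609, plus strand), with 17649 UMIs, was spread over all stromal classes. Enteric glia had 216 and 185 CPM in proximal 1 and proximal 2, the libraries with at least 30 glial cells. The Pdgfra-high Ptn+ stromal class followed at 80.0 ± 18.9 CPM, pericytes at 55.1 ± 10.9 CPM, telocytes at 45.8 ± 6.55 CPM, myofibroblasts or smooth muscle at 42.4 ± 6.54 CPM and lymphatic cells at 26.4 ± 2.35 CPM (SD, n = 4 small intestinal libraries each). Glia did not overlap the class below them, and lymphatic cells (24.5 to 29.8 CPM) did not overlap the myofibroblasts above them (34.9 to 50.3 CPM), while the other neighbours in this order overlapped. Subepithelial cells, universal fibroblasts and trophocytes lay at 19.7 to 20.3 CPM on average and could not be ordered. The 47 epithelial cells of the large intestine had 263 CPM, and no other library held 30 epithelial cells.

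Lgr6 (chr1:134911039-135033100, minus strand) lay in the class of myofibroblasts or smooth muscle, which was gated by contractile genes such as Myh11 and Acta2. Of 493 UMIs in all, this class held 72, 86, 33 and 142 in the small intestinal libraries, at 28.5, 27.6, 33.9 and 31.6 CPM (30.4 ± 2.88 CPM, SD, n = 4). Cecal cells of the class held 1 UMI and those of the large intestine 4, at 0.791 and 1.92 CPM. The next class in the small intestine, the telocytes, rested on 5 UMIs at 2.26 ± 2.23 CPM, and its range did not overlap. An Lgr6 UMI was found in 11.3%, 7.54%, 12.4% and 10.8% of these contractile cells, against 0.676% of those of the cecum and 1.40% of those of the large intestine. The class carried 67.3%, 63.2% and 84.5% of the Lgr6 UMIs of proximal 1, proximal 2 and distal 2 and 33 of the 55 of distal 1, while it was 0.624% to 2.54% of their cells. Regions were not compared by a test in this class.

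Znrf3 (chr11:5226324-5394939, minus strand, overlapping Gm72655), with 34261 UMIs, was highest in lymphoid and other immune cells that remained after the sort. By the mean over the small intestinal libraries the class of other immune cells led, with 150 to 418 CPM from 37 to 48 cells per library. B or plasma cells had 338, 272, 201 and 227 CPM in the small intestine and T cells or innate lymphoid cells 247, 279, 147 and 236 CPM, and the ranges of these 3 classes overlapped. Myeloid cells had less, at 46.2 to 78.8 CPM in 3 libraries. In the stroma the Pdgfra-high Ptn+ class had the highest mean, 78.2 ± 9.18 CPM (SD, n = 4), and trophocytes had 51.7, 55.8, 43.4, 56.7, 32.8 and 42.4 CPM in the 6 libraries in the order used above, and lymphatic cells had 23.8, 18.7, 21.2, 19.9, 20.6 and 21.1 CPM. By the mean over the small intestinal libraries lymphatic cells were the lowest class, and telocytes at 22.3 ± 11.4 CPM (SD, n = 4) overlapped them. Telocytes were lower than lymphatic cells in proximal 1, distal 1 (10.5 CPM), the cecum (12.7 CPM) and the large intestine. Single cells weighed on some of these values. In distal 1, 1 other immune cell held 92 of the 115 Znrf3 UMIs behind the 418 CPM of its class, so the lead of that class in the mean leans on 1 cell. In proximal 2, 1 B or plasma cell held 184 Znrf3 UMIs, and 1 unassigned cell of proximal 1 held 239 of the 395 in its class.

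Rnf43 (chr11:87553548-87626377, plus strand, overlapping 1110028F11Rik), with 1052 UMIs, was nearly absent from the stroma. T cells or innate lymphoid cells had 123, 249, 66.9 and 105 CPM in the small intestine and B or plasma cells 33.8, 33.8, 21.0 and 21.1 CPM. No Rnf43 UMI was counted in small intestinal telocytes, pericytes, myofibroblasts or blood endothelial cells, and trophocytes had 0.222 ± 0.0768 CPM (SD, n = 4). Rnf43 is also made by epithelial cells, and the 47 epithelial cells of the large intestine had 102 CPM and 79.1% of that library's Rnf43 UMIs. Of the T cells or innate lymphoid cells with an Rnf43 UMI, 32 of 37, 36 of 40, 13 of 13 and 13 of 15 had no UMI of the 6 epithelial markers in proximal 1, proximal 2, distal 1 and distal 2. Of the B or plasma cells with one, 15 of 37, 31 of 74, 11 of 22 and 7 of 15 had none, so epithelial UMIs were present in most Rnf43-positive B or plasma cells in 3 of these libraries. The classes differed in depth and in epithelial UMIs whatever their Rnf43. B or plasma cells held 54.7 to 65.4 CPM of the 6 markers at median depths of 10244.5 to 14791 UMIs. T cells or innate lymphoid cells held 13.4 to 30.7 CPM at 4724 to 5715 UMIs. The share among Rnf43-negative cells was not counted, and the part of epithelial UMIs in the Rnf43 values was not tested.

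**Figure D4:**
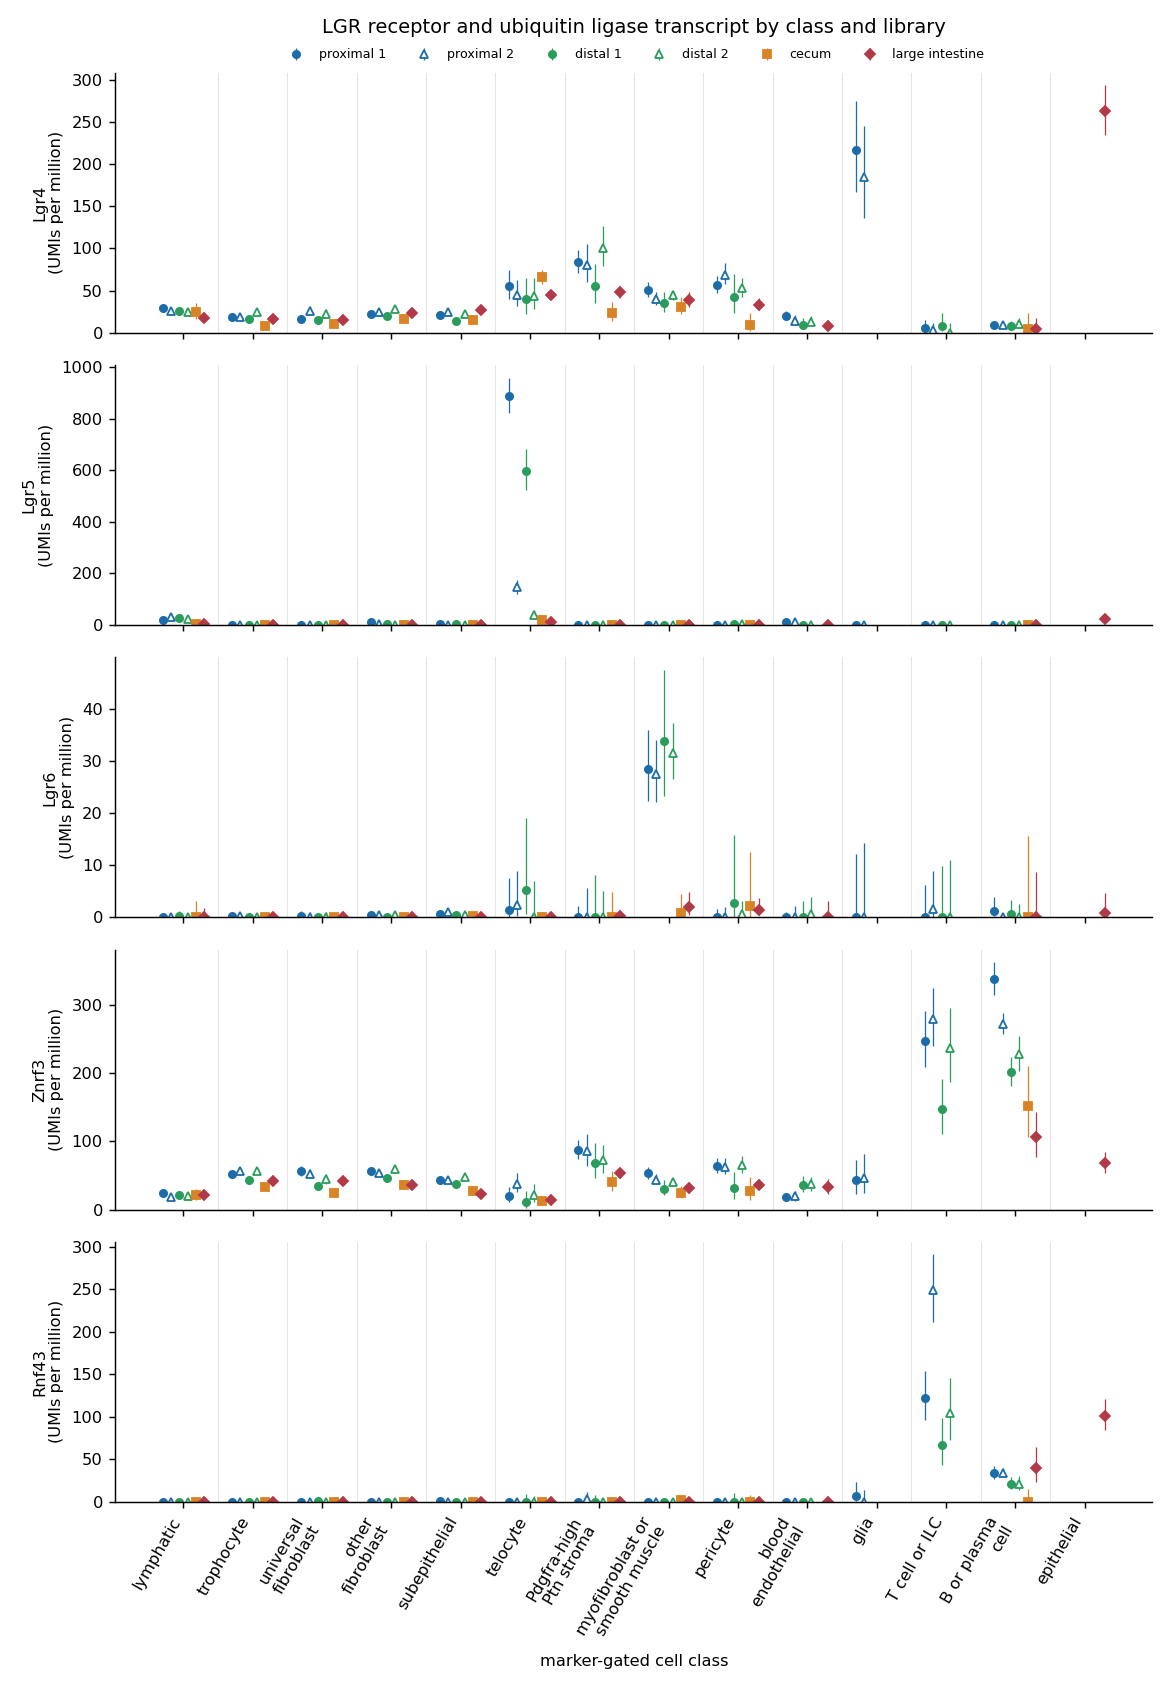
Levels of Lgr4, Lgr5, Lgr6, Znrf3 and Rnf43 by class in CPM (vertical axes), with libraries as points and exact Poisson intervals of the count as bars. Classes with under 30 cells in a library are not drawn. Lgr6 stood apart in myofibroblasts or smooth muscle (27.6 to 33.9 CPM in the small intestine), and Rnf43 in immune and epithelial cells.

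The classes were then compared within the 4 small intestinal libraries, with edgeR's quasi-likelihood test on UMIs summed per library and class, the library as a block and Benjamini-Hochberg adjustment over all genes tested. Fold changes are differences on the log2 scale ± SE. Lymphatic cells had more Rspo3, Lgr5 and Lgr4 and less Rspo1, Rspo2 and Znrf3 than trophocytes. Rspo3 was higher by 1.11 ± 0.19 (adjusted p = 0.00105), in 4 of 4 libraries. Rspo2 fell by 6.45 ± 0.16 (adjusted p = 3.53e-08), Rspo1 fell by 6.14 ± 0.42 (adjusted p = 6.34e-06) and Znrf3 fell by 1.41 ± 0.08 (adjusted p = 2.05e-06). The lymphatic Rspo2 values of 1.38 to 2.33 CPM overlapped the 1.55 to 2.40 CPM of B or plasma cells, which should lack the gene. The lymphatic level could not be told apart from that of B or plasma cells, so the size of the Rspo2 fold is poorly determined. Free RNA held 45.2 to 64.2 CPM of Rspo2 in these libraries, and its part in the lymphatic values was not tested. Lymphatic Rspo1 rested on 1, 1, 1 and 5 UMIs, so the size of its fold is poorly determined. Lgr5 was higher by 6.01 ± 0.22 (adjusted p = 1.95e-07). Lgr4 was higher by 0.34 ± 0.10 (adjusted p = 0.0148), but by 0.27 (adjusted p = 0.0682) without proximal 1 and 0.31 (adjusted p = 0.0558) without proximal 2. All 6 of the genes that passed the filter on low counts were called, where 74.5% of all 18075 genes tested were called, so the count alone is no result about these genes. Rspo4, Lgr6 and Rnf43 had too few UMIs to be tested.

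Subepithelial cells had less of the 3 measured R-spondins than trophocytes. Rspo1 fell by 5.08 ± 0.38 (adjusted p = 6.92e-05), Rspo2 by 4.72 ± 0.17 (adjusted p = 4.97e-06) and Rspo3 by 0.99 ± 0.32 (adjusted p = 0.0337). The Rspo3 call was lost without proximal 1 (-0.90, adjusted p = 0.123) and with free RNA subtracted (-1.11, adjusted p = 0.0527), and distal 1 was the library in which Rspo3 was higher in subepithelial cells. Lgr6 was higher by 1.84 ± 0.43 (adjusted p = 0.0106), at 0.404 to 0.981 CPM in subepithelial cells and 0.0235 to 0.232 CPM in trophocytes. These levels rest on few UMIs, with 3 positive subepithelial cells in distal 1 and 1 positive trophocyte in distal 2, so the size of the fold is poorly determined. Free RNA held 0 to 1.06 CPM of Lgr6 over the 6 libraries, and its part was not tested. Znrf3 fell by 0.50 ± 0.05 (adjusted p = 2.28e-04). Lgr5 (1.73 ± 0.62, adjusted p = 0.0502), Lgr4 (-0.20, adjusted p = 0.146) and Rnf43 (0.29, adjusted p = 0.568) did not pass, while Lgr5 passed in 9 of the alternatives and Lgr4 without proximal 2 (-0.31, adjusted p = 0.0351). Subepithelial Lgr5 rested on few cells, so the size of its fold is poorly determined. In proximal 1, 2 cells held 41 of its 47 UMIs, and in distal 1, 2 cells held 18 of 19. Proximal 2 and distal 2 had 8 UMIs each. The 5 calls among 8 genes tested compare with 58.9% of all genes.

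Telocytes differed from subepithelial cells most in Lgr5, which was higher by 7.82 ± 0.23 (adjusted p = 2.52e-10), in 4 of 4 libraries. Lgr4 was higher by 1.15 ± 0.18 (adjusted p = 6.10e-04). Rspo3 fell by 1.63 ± 0.23 (adjusted p = 2.39e-04) and Znrf3 by 0.89 ± 0.23 (adjusted p = 0.0214). The Lgr4 call was lost with a looser gate, which asked for 1 marker fewer (0.44, adjusted p = 0.213). The Znrf3 call was lost with the same gate (-0.37, adjusted p = 0.300), after thinning (adjusted p = 0.156), in limma (adjusted p = 0.0617) and without proximal 1, distal 1 or distal 2 (adjusted p = 0.0976, 0.0818 and 0.0851). Rspo2 (-0.38, adjusted p = 0.688) and Lgr6 (1.63, adjusted p = 0.364) did not pass, and Lgr6 passed in limma alone (1.97, adjusted p = 0.0325). Of the 6 genes tested 4 were called, where 14.1% of all genes were.

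Universal fibroblasts and trophocytes differed by less for these genes, and the calls depended on the gate. The 2 classes were not well separated by markers, since small intestinal universal fibroblasts carried a median of 4 or 5 of the 6 trophocyte markers. Rspo2 was lower by 0.27 in universal fibroblasts (-0.27 ± 0.07, adjusted p = 0.0227), the only call among 6 genes tested, where 21.4% of all genes were called. It was lost without proximal 2 (adjusted p = 0.0808) or distal 2 (adjusted p = 0.101), after thinning (adjusted p = 0.0802), with several hashtags kept (adjusted p = 0.0624) and with no library block (adjusted p = 0.598), and a looser gate turned its direction (0.04, adjusted p = 0.661). Rspo3 (-0.14 ± 0.05, adjusted p = 0.0511) and Rspo1 (0.35 ± 0.24, adjusted p = 0.334) did not pass. With a stricter gate, which asked for 1 marker more, Rspo3 (-0.55, adjusted p = 0.00149) and Znrf3 (-0.51, adjusted p = 0.00989) were lower in universal fibroblasts, and Rspo3 also passed in limma, with no filter and with several hashtags kept (adjusted p = 0.0292, 0.0207 and 0.0162).

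Distal and proximal small intestine were compared within 4 classes, with all 6 libraries in 1 edgeR fit per class. None of the genes tested passed in any class in this fit. The background was as low, at 0% of genes called in lymphatic cells, 0.108% in trophocytes, 0.00601% in subepithelial cells and 0.0191% in telocytes. In lymphatic cells 427 genes had an unadjusted p under 0.05, DESeq2 called 15 and limma called 0. The difference nearest the threshold was Rspo3 in trophocytes, lower in distal libraries (-0.92 ± 0.14, adjusted p = 0.0813). Over the hashtags, trophocyte Rspo3 ranged from 171 to 218 CPM in the proximal libraries and 86.4 to 117 CPM in the distal libraries, without overlap, and cells with no hashtag had 174, 191, 103 and 132 CPM in proximal 1, proximal 2, distal 1 and distal 2. It passed in DESeq2 (adjusted p = 7.30e-05), with no filter (adjusted p = 0.0103), without distal 1 (-0.84, adjusted p = 0.0325) and without distal 2 (-0.99, adjusted p = 0.00871). Within set A trophocyte Rspo3 was 178 CPM in proximal 1 and 90.0 CPM in distal 1, and within set B 197 CPM in proximal 2 and 108 CPM in distal 2. With the hashtag set, which is also the replicate number, as a block in edgeR, Rspo3 (-0.92, adjusted p = 1.12e-06) and Rspo1 (-0.82, adjusted p = 3.51e-04) were called in trophocytes and Lgr5 in telocytes (-1.06, adjusted p = 0.0224). With no block, telocyte Lgr5 differed by -1.50 without proximal 2, but its direction turned without proximal 1, without distal 2 and with a stricter gate. In lymphatic cells Rspo3 differed by 0.02 ± 0.18 (adjusted p = 1.00). Whether the regional difference of Rspo3 in trophocytes differs from that in lymphatic cells was not tested.

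Between large bowel and small intestine, 2 or 3 of the genes tested passed in each of these 4 classes. Of all genes tested, 15.1% were called in lymphatic cells, 31.1% in trophocytes, 32.6% in subepithelial cells and 10.4% in telocytes. In trophocytes and subepithelial cells the count alone is no result about these genes. The cecum and the large intestine had 1 library each and are assumed to vary like the small intestinal libraries, and every large bowel library carried hashtag set A, so the values of the set A libraries proximal 1 and distal 1 are the closest small intestinal match. In trophocytes Rspo2 fell by 4.72 ± 0.43 (adjusted p = 8.61e-04), from 108 and 81.4 CPM in proximal 1 and distal 1 to 1.58 CPM in the cecum and 13.8 CPM in the large intestine. Rspo3 fell by 0.85 ± 0.12 (adjusted p = 0.00429), and within set A the distal 1 value of 90.0 CPM lay below the 94.7 CPM of the large intestine. Lgr4 fell by 0.66 ± 0.17 (adjusted p = 0.0269), a call lost without proximal 1 (adjusted p = 0.0558), in limma (adjusted p = 0.0671) and with a stricter gate (adjusted p = 0.236). Rspo1 differed by 0.28 ± 0.25 (adjusted p = 0.420) in the same cells. Of 8 genes tested in trophocytes 3 were called, against 31.1% of all genes. The study reports trophocytes mainly in its small intestine samples. Here 89.9% of cecal cells of the class and 57.3% of those of the large intestine had exactly the number of markers needed. The differences are thus those of a marker-gated class and may not lie within 1 cell type. Some markers of the class moved with the region, in both directions. Dkk2 was nearly absent from the large bowel class. Grem1 stood at 190 CPM in the cecum, but its 987 CPM in the large intestine lay within the 901 to 1245 CPM of the small intestine. Cd81 was higher, at 96.4 to 219 CPM in the small intestine, 634 CPM in the cecum and 643 CPM in the large intestine, and Cd34 was also higher in both. The part of these shifts in the Rspo2 and Rspo3 differences was not tested.

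In lymphatic cells Rspo3 fell by 0.97 ± 0.17 (adjusted p = 0.0121) and Lgr5 fell by 2.69 ± 0.42 (adjusted p = 0.00779) in the large bowel, the second a call lost in limma (-2.55, adjusted p = 0.0568). Within set A the lymphatic values were 277 and 284 CPM of Rspo3 in proximal 1 and distal 1 against 163 and 166 CPM, and 19.1 and 26.2 CPM of Lgr5 against 4.11 and 3.84 CPM. Rspo2 also passed the threshold, but both large bowel libraries had no UMI. The limit of 2.47 CPM in the cecum lay above all 4 small intestinal values and that of 1.44 CPM in the large intestine above 1 of them, so no fold is given. Free RNA held 8.62 CPM of Rspo2 in the cecum and 2.22 CPM in the large intestine, also below its small intestinal level, and its part was not tested. Lgr4 (-0.36, adjusted p = 0.185) and Znrf3 (-0.03) did not pass. Among 5 genes tested 3 were called, against 15.1% of all genes. Lymphatic markers moved in the same cells, in both directions. Reln stood at 4195 to 4837 CPM in the small intestine, 2042 CPM in the cecum and 1969 CPM in the large intestine, and Mmrn1, Flt4 and Prox1 were lower as well. Ccl21a was higher, at 2252 to 4048 CPM in the small intestine, 11103 CPM in the cecum and 11271 CPM in the large intestine. Lyve1 was also higher, at 2319 to 2588, 3897 and 3766 CPM. The part of these shifts in the Rspo3 and Lgr5 differences was not tested.

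In subepithelial cells Rspo1 was higher in the large bowel by 4.18 ± 0.38 (adjusted p = 8.53e-04) and Rspo3 was lower (-2.50 ± 0.28, adjusted p = 0.00176). Rspo3 stood at 92.7, 52.9, 102 and 87.3 CPM in the small intestinal libraries, 14.5 CPM in the cecum and 11.6 CPM in the large intestine, with no overlap. Znrf3 was lower (-0.61 ± 0.14, adjusted p = 0.0208), a call lost without proximal 1 (adjusted p = 0.0598) and with a looser gate (adjusted p = 0.0691). Rspo2 differed by 0.06 ± 0.49 (adjusted p = 0.938), with 14.4 CPM in the cecum and 2.35 CPM in the large intestine on either side of the small intestinal mean. Lgr6 (-2.20, adjusted p = 0.0611) did not pass, but did with no filter (-2.22, adjusted p = 0.0387) and with a looser gate (-2.25, adjusted p = 0.0468). Of 7 genes tested 3 were called, against 32.6% of all genes. Markers of the class moved with the region, with Il34 at 271 to 624 CPM in the small intestine, 127 CPM in the cecum and 145 CPM in the large intestine, and Procr at 29.3 to 36.7, 88.8 and 109 CPM. Cells exactly at the number of markers needed made up 16.0% to 22.9% of the class in the small intestine and 44.7% and 42.8% in the large bowel. Whether the mixture of cells or the level of the markers differed was not tested, nor was their part in the Rspo1 and Rspo3 differences.

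In telocytes Rspo3 was lower in the large bowel (-3.01 ± 0.49, adjusted p = 0.00364), from 15.8 to 37.9 CPM to 3.24 CPM in the cecum and 2.76 CPM in the large intestine. Lgr5 was lower as well (-4.54 ± 1.02, adjusted p = 0.0201), a call lost with a looser gate (adjusted p = 0.0646), in limma (adjusted p = 0.0591) and with free RNA subtracted (adjusted p = 0.0583). Lgr4 differed by 0.34 ± 0.23 (adjusted p = 0.365), but passed with a looser gate (0.76, adjusted p = 0.0478) and turned direction after thinning (-0.15, adjusted p = 0.798). Rspo2 had too few UMIs to be tested here, and was lower in the large bowel with no filter (-3.39, adjusted p = 0.0451) and with a looser gate (-2.68, adjusted p = 0.0264). Both calls came from 4 genes tested, against 10.4% of all genes. The class held 47 to 99 cells per small intestinal library, 502 cecal cells and 2937 of the large intestine. Its fibroblast limit was lowered after Lgr5-rich cells were seen below it, so the Lgr5 call is not independent of that choice. Of its 6 markers Adamts18 moved most with the region, from 238 to 429 CPM in the small intestine to 34.2 and 25.05 CPM in the cecum and large intestine. Foxl1 in the cecum (111 CPM) and large intestine (85.2 CPM) and Bmp3 in the large intestine (165 CPM) lay above their small intestinal ranges, while Bmp7, Wnt5a and F3 stayed within theirs. The part of these shifts in the Rspo3 and Lgr5 differences was not tested.

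**Figure D5:**
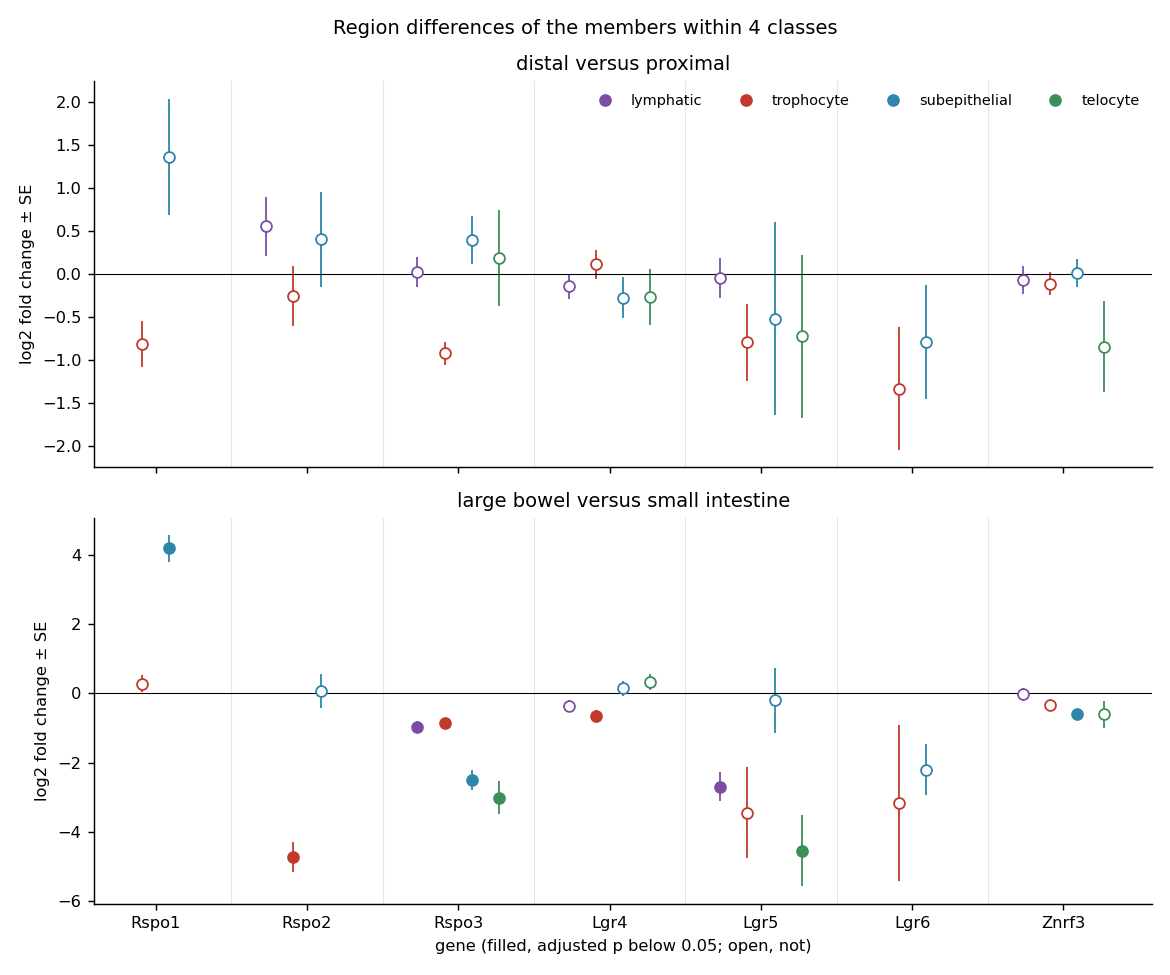
Log2 fold change ± SE (vertical axis) of the tested genes between distal and proximal small intestine and between large bowel and small intestine, in 4 classes. Filled points have an adjusted p under 0.05 in edgeR, none of them in the distal against proximal contrast, and Rspo2 in lymphatic cells is left out of the large bowel contrast because no UMI was counted there.

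The other genes of the pathway were read from 3 lists. Of 15 WNT receptor genes (Frizzleds, LRP co-receptors, RYK and RORs) 14 were tested between lymphatic cells and trophocytes, and 3 were higher and 9 lower in lymphatic cells (median log2 difference -2.32, where the median of all genes was -0.08). Fzd6 was higher by 5.72 ± 0.08, while Fzd2 (-5.76 ± 0.16), Ror2 (-5.62 ± 0.13) and Ror1 (-5.53 ± 0.15) were lower. Of 16 β-catenin target and feedback genes 13 were tested, and 2 were higher and 11 lower (median -3.51), led by the WNT inhibitor Apcdd1 (-5.92 ± 0.13), Dact1 (-5.01 ± 0.13), Tnfrsf19 (-4.37 ± 0.17) and Tcf7 (-3.78 ± 0.19). Of 10 heparan sulfate proteoglycans, co-receptors that bind R-spondins and WNTs, 2 were higher and 6 lower (median -4.37), led by Gpc3 (-5.95 ± 0.13), Sdc2 (-5.33 ± 0.11), Gpc4 (-4.86 ± 0.13) and Gpc6 (-4.83 ± 0.24). The shares called were 85.7%, 100% and 80%, against the 74.5% of all genes.

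Between subepithelial cells and trophocytes the WNT receptors had 3 higher and 10 lower of 14 (median -0.83, all genes -0.00), led by Fzd7 (-3.07 ± 0.20), Fzd4 (-2.58 ± 0.08), Fzd1 (-2.47 ± 0.07) and Fzd2 (-1.98 ± 0.20). The β-catenin target and feedback genes had 6 higher and 6 lower of 13. Sp5, a transcription factor induced by WNT, was higher by 4.26 ± 0.54 and Cd44 by 1.70 ± 0.07, while Myc (-2.73 ± 0.19) and Apcdd1 (-2.46 ± 0.07) were lower. All 10 proteoglycans were called, 6 higher and 4 lower, with Gpc3 lower (-3.51 ± 0.25) and Gpc5 (1.70 ± 0.41), Gpc2 (1.17 ± 0.19) and Gpc1 (0.84 ± 0.11) higher. The shares called were 92.9%, 92.3% and 100%, against 58.9% of all genes.

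Telocytes had more Fzd6 (3.17 ± 0.72), Fzd2 (1.75 ± 0.20) and Ror2 (1.51 ± 0.17) than subepithelial cells and less Fzd1 (-0.63 ± 0.17), among 3 receptors called higher and 2 lower of 13. Of 12 target and feedback genes 1 was higher, Tcf7 (1.02 ± 0.23), and 4 were lower, with Tnfrsf19 (-2.05 ± 0.32), Apcdd1 (-1.26 ± 0.28) and Dact1 (-0.94 ± 0.19) among them. Of 9 proteoglycans Sdc4 was higher (0.53 ± 0.12) and Gpc6 lower (-1.07 ± 0.16). The shares called were 38.5%, 41.7% and 22.2%, against 14.1% of all genes. Universal fibroblasts had 1 receptor higher than in trophocytes, Fzd4 (0.70 ± 0.09), and 6 lower of 14, with Lrp5 (-0.55 ± 0.09), Ror2 (-0.53 ± 0.08) and Fzd1 (-0.45 ± 0.09) the lowest. Their target and feedback genes had 3 higher and 5 lower of 13, led by Tnfrsf19 (-1.46 ± 0.09), Myc (1.24 ± 0.12), Apcdd1 (-1.15 ± 0.08) and Nkd1 (-1.13 ± 0.09), and their proteoglycans 2 higher and 3 lower of 10, led by Sdc1 (-1.18 ± 0.13), Gpc3 (0.97 ± 0.07), Gpc1 (-0.74 ± 0.11) and Sdc3 (0.56 ± 0.07). The shares called were 50%, 61.5% and 50%, against 21.4% of all genes.

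None of the list genes passed between distal and proximal small intestine in any of the 4 classes. In the large bowel contrast the WNT receptors had 1 higher and 3 lower of 13 tested in lymphatic cells, 1 and 7 of 14 in trophocytes, 5 and 4 of 14 in subepithelial cells, and 0 and 1 of 11 in telocytes. The target and feedback genes had 1 higher and 5 lower of 10, 3 and 5 of 14, 2 and 4 of 14, and 2 and 1 of 12 in the same classes, and the proteoglycans 3 and 1 of 8, 2 and 3 of 10, 3 and 2 of 10, and 0 of 8. The shares of receptors called were 30.8%, 57.1%, 64.3% and 9.09%, against 15.1%, 31.1%, 32.6% and 10.4% of all genes. The shares were 60%, 57.1%, 42.9% and 25% for the target genes and 50%, 50%, 50% and 0% for the proteoglycans.

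The genes whose levels followed each of the 6 most counted ligands and receptors were found by Pearson's r of log2(CPM + 1) over 68 sums of a class in a library, which share libraries and depth, so the values are descriptions. For Rspo3 they were Ntn1 (r = 0.887), 4930578G10Rik (0.879), Il33 (0.849), Cp (0.832) and Castor2 (0.808). For Rspo2 they were Shisa3 (0.864), Adamts19 (0.836), Nkain3 (0.831), Apcdd1 (0.828) and Arrdc3 (0.824), and for Rspo1 they were Thrb (0.834), Gsn (0.8291), Penk (0.816), Cnksr2 (0.814) and Fbln1 (0.806). Lgr6 was followed by Cnn1 (0.768), Rims1 (0.761), Actg2 (0.759), Pln (0.747) and Ctxn1 (0.743). Lgr5 was followed less closely, by Pcsk6 (0.699), Tgfbrap1 (0.660), Npr3 (0.645), Gbe1 (0.642) and Sema3f (0.640), and Lgr4 by Pja2 (0.842), Zmat3 (0.830), Dnal1 (0.816), Ccdc136 (0.813) and Ttc23 (0.812). Penk, Cnn1 and Actg2 were themselves markers of the gates.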

How the data were processed

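The deposited files hold raw UMI counts per gene and barcode, made by the authors with Cell Ranger (8.1.0 in the submitters' notes, 8.0.1 in the file headers) from 10x 3′ libraries aligned to mm39 with tdTomato added. A UMI counts one molecule by its 3′ tag, so gene length was not corrected for. Only these counts were used. Cells entered with 1000 to 7500 genes, 2500 to 40000 UMIs and a mitochondrial share below 10%. Cells with several hashtags (over 2.5 robust SD) were removed as doublets, 8.39% to 13.8% of cells, as were cells with markers of more than 1 lineage, and no doublet caller was run. Free RNA was profiled from barcodes with under 100 UMIs.

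Cells were gated by fixed marker lists, with no clustering. A fibroblast needed at least 25 fibroblast-marker UMIs per 10000. A limit of 50 had been tried first, and the limit was lowered after Lgr5-rich cells were seen below it. The members, lists and markers were chosen with earlier results of these data known. Many cells sat exactly at the number of markers a class needed: 34.0% to 54.4% of small intestinal and 57.3% and 89.9% of large bowel trophocytes, 27.7% to 55.6% of telocytes, 61.1% to 83.0% of small intestinal and 44.6% and 42.5% of large bowel universal fibroblasts, and 16.0% to 22.9% of small intestinal and 44.7% and 42.8% of large bowel subepithelial cells, but 2.61% to 11.7% of lymphatic cells.

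UMIs were summed per library and class with at least 30 cells and tested with edgeR 4.0.16 in R 4.3.3 (quasi-likelihood, TMM, filterByExpr, Benjamini-Hochberg over all genes tested, threshold 0.05), after a run on simulated counts. DESeq2 1.42.0 and limma 3.58.1 served as alternatives. Besides the 9 genes, the text names of each pathway list up to 4 genes with the largest called change, and of each ligand or receptor the 5 most correlated genes among those with a mean of at least 5 CPM in sums of at least 50 cells. Gene positions are from the GRCm39 annotation. The 3′ tags are stranded. Depth ran from 109675337 to 206827504 UMIs on genes per library. Pairs of libraries shared 30 to 90 cell barcodes.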

Additional observations from a re-analysis of the deposited data

How the results depend on the processing

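Of 27 calls on the 9 genes, 15 held in every alternative, 3 were lost in none but had no adjusted p in some (Lgr6 in subepithelial cells, and Rspo2 in lymphatic cells and Rspo3 in telocytes of the large bowel), and 9 were lost somewhere: 8 in another fit and 6 without 1 library, 5 of them in both ways. The fibroblast limit of 25 was itself chosen after the data were seen, and the limit of 50 tried before it, added as an alternative, lost no call on the 9 genes. Where leaving out 1 library left a region with a lone library, that library was assumed to vary like the others. Between telocytes and subepithelial cells a looser gate called 1256 genes instead of 1926, and leaving out 1 library called 1259 to 1856. Between universal fibroblasts and trophocytes 3569 genes were called, but 1844 with a stricter gate, 1930 after thinning and 912 with no library block; of the 9 genes, 2 were called in limma, 2 with no filter, 3 with a stricter gate, none (0) with a looser gate, thinning or no library block, and 0 to 1 without 1 library. Distal against proximal calls were unstable. In lymphatic cells DESeq2 called 15, no filter 119 and leaving out 1 library 0 to 45. In trophocytes limma called 11, DESeq2 191, no filter 187, a stricter gate 48, thinning 57 and leaving out 1 library 52 to 304 instead of 20, and DESeq2 and no filter called 1 of the 9 genes, as did leaving out 1 library (0 to 1). In subepithelial cells limma and free RNA removal called 0, DESeq2 35, no filter 233, thinning 3 and leaving out 1 library 0 to 59. In telocytes limma and thinning called 0, no filter 47, a stricter gate 68, a looser gate, keeping cells with several hashtags and free RNA removal 1 each, and leaving out 1 library 1 to 52 (0 to 1 of the 9 genes).

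With the replicate number as a replicate block, distal against proximal calls were 109 in lymphatic cells, 836 in trophocytes (2 of the 9 genes: Rspo3, -0.92, adjusted p = 1.12e-06 in edgeR, and Rspo1, -0.82, adjusted p = 3.51e-04), 269 in subepithelial cells and 63 in telocytes (1 of the 9, Lgr5, -1.06, adjusted p = 0.0224). Deviations of same-numbered libraries correlated at 0.32, 0.51, 0.39 and 0.25, but 2 pairs cannot show that the numbers pair animals. The block gave no value for the large bowel, which has no second replicate.

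For the large bowel, lymphatic calls went from 2227 to 1470 (limma), 3654 (no filter), 1147 (thinning) and 2031 to 4280 without 1 library. Trophocyte calls went from 5786 to 2565 (stricter gate), 3800 (thinning) and 3762 to 8118 without 1 library. Telocyte calls went from 1085 to 1801 (limma), 683 (DESeq2), 2025 (no filter), 2055 (looser gate), 572 (free RNA removed) and 754 to 1691 without 1 library, and 1 of the 9 genes rather than 2 was called in limma, with a stricter gate, free RNA removed or thinning, and 3 with no filter or a looser gate (with Rspo2 in both). Trophocyte Znrf3 in the large bowel (-0.35, adjusted p = 0.0728) passed without distal 1 (-0.41, adjusted p = 0.00735) or distal 2 (-0.26, adjusted p = 0.0363). Mean telocyte Lgr4 was 31.0 CPM with a looser gate and 62.8 CPM after thinning. With a stricter gate trophocytes held 57.2% of Rspo2 and 48.1% of Rspo1 UMIs. Directions turned for 6 uncalled or weak values: Rspo2 in universal fibroblasts with a looser gate (0.039); lymphatic Rspo3 distal against proximal with no filter (-0.0030) and from -0.15 to 0.18 without 1 library (turned without proximal 1, -0.14, or distal 2); lymphatic Lgr5 in limma (0.012) and from -0.35 to 0.37 (without proximal 2, or distal 2, 0.015); trophocyte Rspo2 from -0.79 to 0.16 (without proximal 2, or distal 1, 0.14); telocyte Lgr5 with a stricter gate (0.43) and from -3.82 to 1.13 (without proximal 1, or distal 2, 0.22); and telocyte Lgr4 in the large bowel after thinning (-0.15). The causes were not tested. Telocyte values in the small intestine rest on 47 to 99 cells per library, which limits them.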
